A study of Canis lupus familiaris with 5 samples.

Results

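ACTN2, PDLIM5, TCAP, CSRP3 and XIRP1 are striated muscle genes whose proteins sit at the Z-disc or at the cell junctions that continue it. They were followed here in canine myocardium through every probe set that the platform annotation pairs with 1 of these symbols alone, which gave 12 probe sets of the 4601 that were not array controls. The 5 genes stand among 2416 genes with such a probe set. They had been picked with their failing against control values known, so those values are given as a description with no test.

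The study measured RNA of failing hearts and of control hearts on 5 arrays. The 3 failing arrays (failing 1a, failing 1b and failing 2a) came from dogs with congestive heart failure, whose cause is not given in the sources used here, and each carried pooled RNA of 3 dogs. The 2 control arrays came from control dogs. Control 2a was likewise a pool of 3 dogs, and the RNA behind control 1a is not described. Strain, age, sex and heart chamber are not given either, and nothing says whether failing 1a and failing 1b are separate pools or repeats of the same one, so the spread between arrays may be technical. Probe sets on this array were designed on human transcripts and were hybridised with dog RNA.

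The Z-disc is the border of the sarcomere, where thin filaments of opposite polarity are crosslinked by alpha-actinin and where titin is anchored. Around this lattice lie adaptor proteins of the PDZ-LIM and LIM families, which tie it to kinases and to the membrane. Telethonin and the muscle LIM protein have been discussed as parts of a stretch sensor at this site, and mice without the muscle LIM protein develop dilated cardiomyopathy. Probe and gene sequences were not used here, so identities are given by symbol and probe set name, and no genome build belongs to the table.

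The brightest probe set of ACTN2, PDLIM5, TCAP and CSRP3 read higher on each failing array than on either control array, by 3.52-fold, 2.32-fold, 1.75-fold and 1.40-fold between the means of log2 intensities. For XIRP1 the groups overlapped. This was thus the case for 4 of the 5 genes. Of all 1449 genes tested, 19.5% lay above control in this way and 11.8% below. Counted over the 12 probe sets, 6 had all failing values above both control values and 1 had them all below, while 13.1% and 13.4% of all 4601 probe sets did so. Since the genes were chosen on this contrast, nothing is read from these shares. Bulk RNA cannot tell a change in the share of myocytes from a change in transcript per myocyte.

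**Figure D1:**
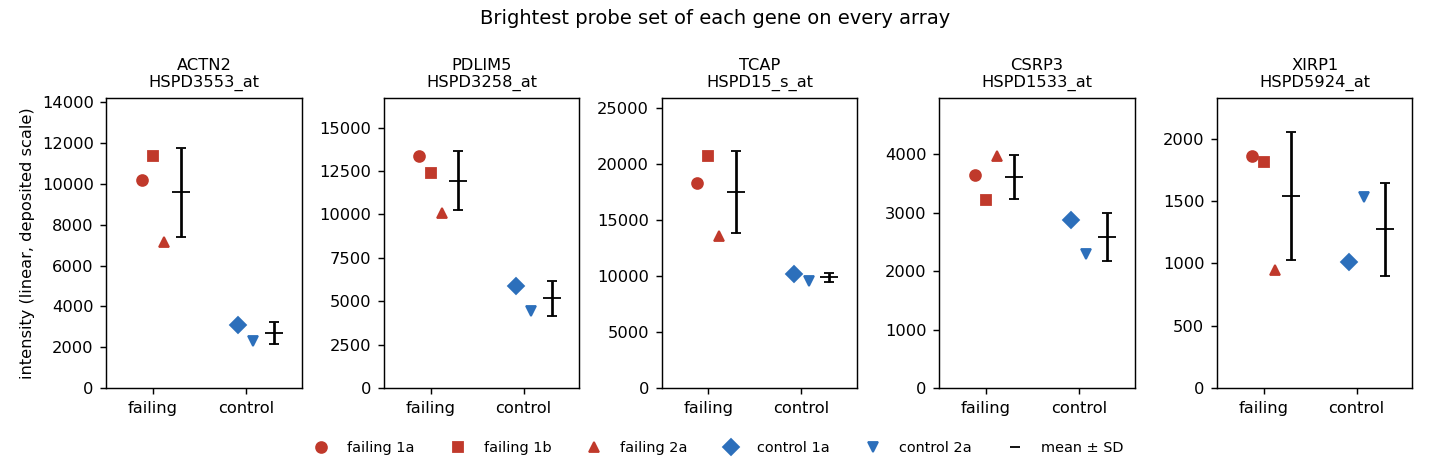
Linear intensity of the brightest probe set of each gene on every array, failing arrays to the left of control arrays in each panel, with the mean and SD of each group in black (n = 3 failing, n = 2 control). ACTN2, PDLIM5, TCAP and CSRP3 read above both control arrays on all 3 failing arrays, and the XIRP1 values of the groups overlap.

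Intensities are linear readings on the scale deposited by the authors, on which every array has the same trimmed mean of 800 and many dim probe sets lie below 0. Values under 20 were raised to 20 before taking log2. Differences are failing minus control on that log2 scale, with the standard error (SE) of a limma fit over all 2301 probe sets bright enough to be tested. A probe set was tested when its mean log2 intensity over the 5 arrays reached the median of 7.13, and 10 of the 12 did. A fold is given only where no array was below 20.

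ACTN2 encodes alpha-actinin 2, the muscle isoform of the crosslinker that bundles thin filaments in the Z-disc, and had 1 probe set, HSPD3553_at. Its intensity was 10208, 11359 and 7175 on failing 1a, 1b and 2a, against 3080 and 2321 on control 1a and 2a. The lowest failing array, failing 2a, was still well above the highest control array. The group means were 9581 ± 2162 in failing and 2701 ± 537.1 in control myocardium (SD, n = 3 and 2). The log2 difference was 1.81 ± 0.28 (SE), and 85 of the 1449 tested genes had a larger one. With only this probe set, agreement within ACTN2 cannot be examined.

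PDLIM5 encodes a PDZ-LIM adaptor, also called ENH, whose PDZ domain binds alpha-actinin and whose LIM domains bind protein kinase C. Its bright probe set HSPD3258_at read 13363, 12388 and 10055 on failing 1a, 1b and 2a, against 5866 and 4459 on control 1a and 2a. The arrays stood in nearly the same order as for ACTN2, with failing 2a the lowest of the failing arrays and control 2a the lowest of all. The means were 11935 ± 1700 in failing and 5162 ± 995.1 in control myocardium (SD), a log2 difference of 1.21 ± 0.22 (SE).

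The second tested probe set of PDLIM5, NM_006457_r_at, was dimmer and read 918.3, 961.5 and 2043 on failing 1a, 1b and 2a, against 651.3 and 805.7 on control 1a and 2a. It too lay above control on every failing array, with a log2 difference of 0.75 ± 0.50 (SE). Here failing 2a was the highest array and the other failing arrays were close to control, so both probe sets shared the direction and not the order of the failing arrays. Without failing 2a the log2 difference of NM_006457_r_at was 0.38. The remaining probe set, NM_006457_f_at, was below 20 on 4 arrays, read 124.5 on failing 2a, and gives no level for PDLIM5.

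TCAP encodes telethonin, which caps the ends of titin molecules in the Z-disc, and was the member with the most probe sets, 4, all of them tested. The brightest, HSPD15_s_at, read 18272, 20697 and 13520 on failing 1a, 1b and 2a, against 10144 and 9586 on control 1a and 2a. The means were 17496 ± 3651 in failing and 9865 ± 394.2 in control myocardium (SD), and the log2 difference was 0.80 ± 0.23 (SE). HSPD13893_r_at read 13138, 16130 and 12066 on failing 1a, 1b and 2a, against 8296 and 7374 on control 1a and 2a, with a log2 difference of 0.81 ± 0.20 (SE). Both bright probe sets ranked all 5 arrays identically, failing 1b first and control 2a last, and both gave 1.75-fold.

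The other 2 probe sets of TCAP did not follow them. HSPD13893_s_at read 735.5, 816.3 and 2393 on failing 1a, 1b and 2a, against 2089 and 1198 on control 1a and 2a. Failing 2a was the highest array and failing 1a and 1b the lowest, so the groups overlapped, with a log2 difference of -0.49 ± 0.64 (SE). HSPD15_r_at read 1846, 769.5 and −2033 on failing 1a, 1b and 2a, against 3677 and 2593 on control 1a and 2a. It lay below control on every failing array, with a log2 difference on floored values of -3.34 ± 1.95 (SE) that was -1.37 without failing 2a, the array below 0.

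The direction of TCAP therefore depended on which of its probe sets was read. The median over the 4 probe sets gave a log2 difference of -0.10 where the brightest gave 0.80. In the naming used for arrays of this kind, the endings _s and _r mark probe sets shared between transcripts and those made with relaxed rules for choosing probes, and each ending occurs in both the higher and the lower pair. Within each pair of probe sets made on the same transcript entry, HSPD15 and HSPD13893, one read higher and the other lower in failing myocardium.

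**Figure D2:**
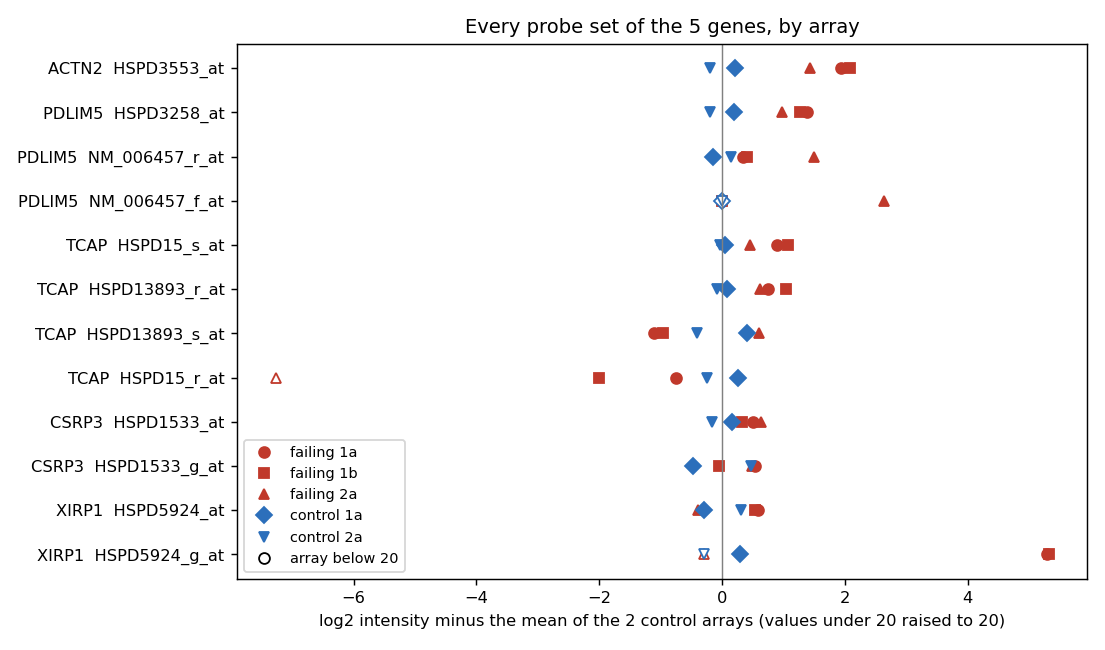
Log2 intensity of all 12 probe sets on each array minus the mean of the 2 control arrays, with failing arrays in red, control arrays in blue and open symbols for arrays below 20. The single ACTN2 probe set and the bright probe sets of PDLIM5 and TCAP have all failing arrays right of control, whereas HSPD15_r_at of TCAP has them all to the left.

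CSRP3 encodes the muscle LIM protein, a LIM-only adaptor that binds alpha-actinin and telethonin. HSPD1533_at read 3643, 3217 and 3971 on failing 1a, 1b and 2a, against 2874 and 2292 on control 1a and 2a. Failing 2a was here the highest array, and the gap between the nearest arrays of the groups, 3217 on failing 1b and 2874 on control 1a, was smaller than the SD of either group. The means were 3610 ± 378.1 in failing and 2583 ± 411.3 in control myocardium (SD), a log2 difference of 0.49 ± 0.24 (SE). HSPD1533_g_at read 3096, 2060 and 2985 on failing 1a, 1b and 2a, against 1540 and 2971 on control 1a and 2a. Its groups overlapped, its log2 difference of 0.32 ± 0.39 (SE) was within 1 SE of 0, and without control 1a it was -0.15.

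XIRP1 encodes Xin, an actin-binding repeat protein which in the mouse heart lies at the intercalated disc, where myofibrils end at the cell junction, rather than at the Z-disc. HSPD5924_at read 1860, 1810 and 947.4 on failing 1a, 1b and 2a, against 1011 and 1535 on control 1a and 2a. Failing 2a was the lowest array of all, and the log2 difference of 0.24 ± 0.45 (SE) was smaller than its error. It was 0.56 without failing 2a and -0.06 without control 1a. HSPD5924_g_at was not tested and read 962.2, 981.7 and −709.1 on failing 1a, 1b and 2a, against 30.1 and −244.0 on control 1a and 2a. On both XIRP1 probe sets failing 1a and 1b were the highest arrays and failing 2a the lowest.

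Probe sets of a gene often disagreed on these arrays. Of the 357 genes with at least 2 tested probe sets, 184 (51.5%) had probe sets on both sides of 0, and the median range within a gene was 1.04 on the log2 scale. PDLIM5 and CSRP3 had a range of 0.46 and 0.17 with 1 sign each, and TCAP had a range of 4.15 with both signs. ACTN2 and XIRP1 had 1 tested probe set.

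Differences within a group are not the contrast on which the genes were chosen, but they are not independent of that choice. Choosing genes by their failing against control values may favour a small spread within groups. The brightest probe sets of the 5 genes were also bright, with mean log2 intensities from 10.4 for XIRP1 to 13.8 for TCAP. The values over all tested genes are thus no matched background, and nothing is read from that comparison. Differences within a group are given here at the brightest probe set of each gene, and other probe sets did not always follow. Failing 1a and 1b read 1846 and 769.5 at HSPD15_r_at of TCAP. Control 1a and 2a read 1540 and 2971 at HSPD1533_g_at of CSRP3, and failing 2a was the highest array at NM_006457_r_at of PDLIM5. Between the control arrays, control 1a exceeded control 2a by 0.41 for ACTN2, 0.40 for PDLIM5, 0.33 for CSRP3 and 0.08 for TCAP on the log2 scale, and fell short of it by a difference of -0.60 for XIRP1. The median absolute difference between these arrays was also 0.41 over all tested genes. Failing 1a and 1b differed by 0.18 or less for each of the 5 genes, and by a median absolute value of 0.31 over all genes. Failing 2a lay below the mean of failing 1a and 1b, with differences of -0.59 for ACTN2, -0.36 for PDLIM5, -0.52 for TCAP and -0.95 for XIRP1. For CSRP3 it lay above, at 0.21. Over all tested genes the median of that difference was 0.30 and its median absolute value 0.82.

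Failing 2a stood apart from the other arrays in general. Its correlation with them across genes was 0.561 to 0.581, while failing 1a and 1b reached 0.820 and the control arrays 0.790 with each other. The 3′ to 5′ intensity ratio of the GAPDH control was 1.32 to 1.44 on the failing arrays and 2.15 to 2.32 on the control arrays. The same ratio for actin overlapped, with 0.192, 0.0873 and 0.205 on failing 1a, 1b and 2a, against 0.0899 and 0.108 on control 1a and 2a. The part of RNA quality in the differences was not tested. With failing 2a left out, the log2 difference was 2.01 for ACTN2, 1.33 for PDLIM5, 0.98 for TCAP and 0.42 for CSRP3.

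The arrays carried the labelled tissue. Of 18 cardiac myocyte markers 11 had a probe set, 10 were tested and none was below 20 on all arrays, led by MYH6, TNNC1 and MYL3. Their summed intensity, with values below 0 counted as 0, was 129582 to 144893 on the failing arrays, below the 157627 to 167026 on the control arrays. MYH6, the alpha myosin heavy chain, read 29129, 38368 and 36014 on failing 1a, 1b and 2a, against 49704 and 50189 on control 1a and 2a. MYL3, a light chain of the ventricular myosin, averaged 19448 ± 2608 in failing and 28523 ± 3922 in control myocardium (SD), and the bright troponin gene TNNC1 34631 ± 2250 and 33991 ± 419.9. The sum thus leans on a few bright genes. Of the 10 tested markers 1 had all failing values above control and 3 had them below, against 19.5% and 11.8% of all tested genes. The list's median log2 difference was 0.09. The part of the myocyte share in the differences of the 5 genes was not tested.

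The summed markers of some other cells differed as well. The 5 striated muscle genes are not confined to the heart. The 12 of 15 skeletal muscle markers present summed to 10016 to 13626 on failing and 8153 to 8252 on control arrays. PVALB was below 20 on every array. This sum leaned on ACTN3, which read 6971 on failing 1b and -1325 on failing 2a. Of the 10 tested skeletal muscle markers, 3 had all failing values above control and 1 had them below, against 19.5% and 11.8% of all tested genes. The 9 of 10 fibroblast markers present summed to 7778 to 9701 on failing and 4329 to 5680 on control arrays, and the 8 of 10 endothelial markers to 7781 to 16161 and 5601 to 6801. All failing values lay above control for 3 of 8 tested fibroblast and 4 of 7 tested endothelial markers, and below for 0 of either list. The part of such cells in the differences of the 5 genes was not tested. Smooth muscle markers other than DES (6 of 9) overlapped, at 4537 to 6761 on failing and 4853 to 5031 on control arrays, with CNN1 below 20 on every array. Erythroid markers (2 of 8) overlapped too, at 4424 to 5549 and 3301 to 5270. Of 13 leukocyte markers 4 had a probe set, none was tested, CD163 and ITGAM were below 20 on every array, and their sum was 12.9 to 1930 on failing, highest on failing 2a, and 77.1 to 172.8 on control arrays.

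Genes related to the 5 by sequence were read as a check on shared signal between family members. The 10 related genes with a probe set had 17 probe sets, and 6 of these had no array below 20. For the alpha-actinin family, the ACTN3 probe set HSPD2315_f_at read 2431, 6971 and −1325 on failing 1a, 1b and 2a, against 1302 and 1564 on control 1a and 2a. ACTN3 is the fast skeletal muscle isoform, and its readings did not follow those of ACTN2. The brighter probe set of ACTN4, a nonmuscle isoform, read 306.2, 464.9 and 392.5 on failing 1a, 1b and 2a, against 241.0 and −38.1 on control 1a and 2a. It lay above control on every failing array, as ACTN2 did, with a log2 difference on floored values of 2.46 ± 1.36 (SE). The other ACTN4 probe set was below 20 on every array. ACTN1 is paired only with a probe set that also carries another symbol and was not used.

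Among the PDZ-LIM relatives of PDLIM5, PDLIM3 encodes the alpha-actinin-associated LIM protein. It read 1620, 1952 and 2450 on failing 1a, 1b and 2a, against 1247 and 1241 on control 1a and 2a, with all failing arrays above control. LDB3, which encodes the Z-disc protein Cypher or ZASP, read 19877, 22588 and 12664 on failing 1a, 1b and 2a, against 17376 and 10979 on control 1a and 2a, with overlapping groups. PDLIM1 lay above control on every failing array with HSPD958_f_at (log2 difference 0.38) and overlapped with HSPD958_r_at (-0.03). PDLIM7 overlapped on both of its probe sets, with log2 differences of 0.66 and 0.70, and PDLIM2 was below 20 on 4 arrays. CSRP2 and XIRP2, relatives of CSRP3 and XIRP1, were below 20 on every array. CSRP1 read 454.9, −465.8 and 38.8 on failing 1a, 1b and 2a, against 598.1 and 274.7 on control 1a and 2a.

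Other Z-disc genes were compared with a limma fit over the 1449 tested genes, with Benjamini-Hochberg adjustment. Of 38 further Z-disc genes 23 had a probe set, 19 were bright enough for the test, and none passed the adjusted threshold in either direction. Over all genes 0.069% passed, which was the single gene CST3, the cystatin C gene, named here after its value was seen. At its probe set HSPD4314_r_at, control 1a and 2a read -3579 and -4169, so the log2 difference of 8.41 depends on the floor. Its other tested probe set, HSPD4314_f_at, went the other way, with a log2 difference of -2.92. At an unadjusted p under 0.05, 4 of the 19 were higher and 2 lower in failing myocardium, where 6.9% and 3.59% of all genes were. The groups did not overlap for 7 of them, 5 with failing arrays above and 2 with failing arrays below, against 19.5% and 11.8% of all genes. Their median log2 difference was 0.21, and that of all tested genes 0.15.

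The 4 higher ones at that level were ANKRD2, TRIM63, NRAP and DES. ANKRD2, a stretch-responsive ankyrin repeat protein of muscle, read 3212, 3070 and 4032 on failing 1a, 1b and 2a, against 1465 and 1592 on control 1a and 2a, with a log2 difference of 1.16 ± 0.25 (SE, limma adjusted p = 0.291). TRIM63, the muscle ubiquitin ligase MuRF1, read 627.7, 310.9 and 1384 on failing 1a, 1b and 2a, against −606.0 and −306.8 on control 1a and 2a (limma adjusted p = 0.297). NRAP, an anchoring protein of myofibril ends that binds alpha-actinin and the muscle LIM protein, had a log2 difference of 0.73 ± 0.24 (SE, limma adjusted p = 0.418). The muscle intermediate filament gene DES, which links neighbouring Z-discs, had 0.87 ± 0.32 (SE, limma adjusted p = 0.454).

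The 2 lower ones were the giant scaffold genes NEB and TTN. The titin gene TTN, the binding partner of telethonin, read 11370, 9333 and 7246 on failing 1a, 1b and 2a, against 12913 and 15429 on control 1a and 2a, at its brightest probe set (log2 difference -0.62 ± 0.25 SE, limma adjusted p = 0.464). The 3 other tested probe sets of TTN had log2 differences of 0.69, 0.61 and 0.08, with overlapping groups. NEB, the nebulin gene, read 740.8, 1067 and 2750 on failing 1a, 1b and 2a, against 4957 and 3661 on control 1a and 2a. Its other probe set had a log2 difference of -0.35.

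Among 8 tested genes of the intercalated disc and costamere, the structures that hold XIRP1, none passed the adjusted threshold in limma, 1 was higher at an unadjusted p under 0.05, 3 had all failing values above control and none had them below, with a median log2 difference of 0.47. Over all tested genes 6.9% were higher at that level, 19.5% lay above and 11.8% below control, and the median was 0.15. The highest ranked was CTNNB1, beta-catenin of the adherens junction, with 13403, 13162 and 12368 on failing 1a, 1b and 2a, against 8834 and 9770 on control 1a and 2a (log2 difference 0.48 ± 0.16 SE, limma adjusted p = 0.427). JUP, with control 1a below 20, and the brightest probe set of SGCA also lay above control, and GJA1 overlapped. At the other tested probe sets of CTNNB1 and SGCA the groups overlapped, with log2 differences of 0.72 and 0.94.

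None of the 7 thin filament genes or of the 3 thick filament and M-band genes passed in limma either. In the thin filament list 1 gene, the skeletal alpha-actin gene ACTA1, was higher at an unadjusted p under 0.05 (log2 difference 0.78 ± 0.30 SE), and the median was 0.02. In the thick filament list 2 were lower at that level, MYH6 with -0.54 ± 0.18 (SE) and the ventricular light chain gene MYL3 with -0.55 ± 0.19 (SE), and the median was -0.55. Of all tested genes, 6.9% were higher and 3.59% lower at that level, with a median of 0.15. Whether the Z-disc genes differ as a group from the filament genes was not tested.

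**Figure D3:**
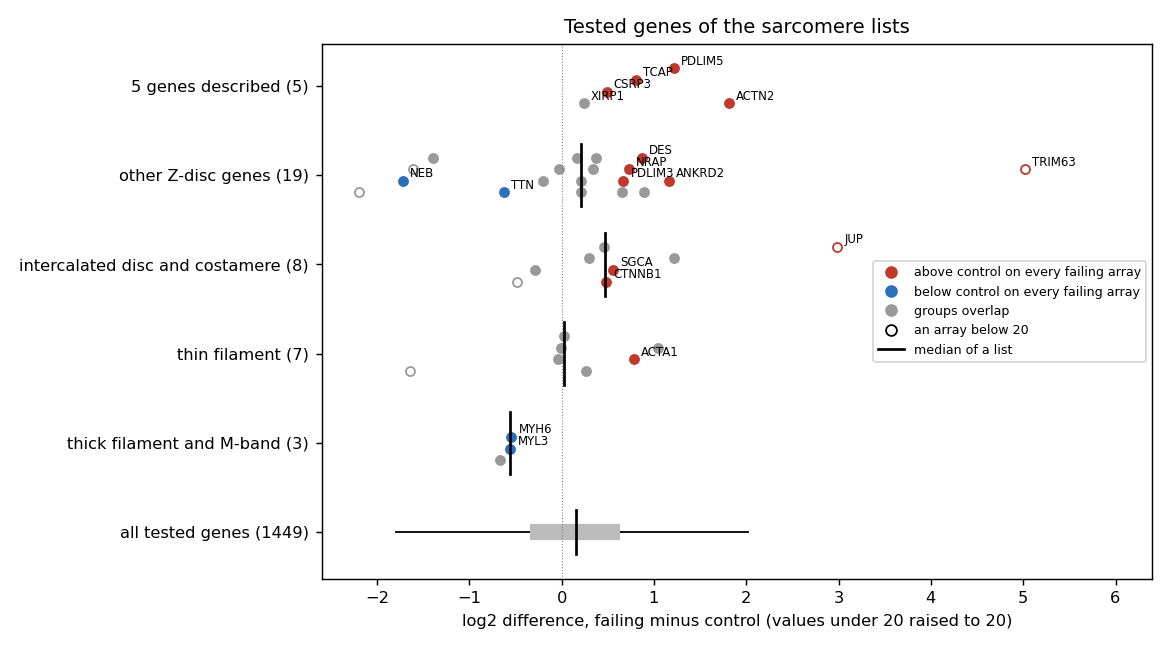
Log2 difference, failing minus control, of every tested gene of 4 sarcomere lists beside the 5 genes described, each point 1 gene at its brightest probe set, with the median of each list as a black line. The lowest row shows all 1449 tested genes, with the grey box from the 25th to the 75th percentile (-0.34 to 0.63), the line from the 5th to the 95th (-1.79 to 2.02) and the median at 0.15. ACTN2 lies furthest right of the genes plotted that have no array below 20.

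The genes nearest to each member in pattern were sought among 1221 tested genes with no array below 20, by the root mean square difference of log2 intensities centred on each gene's own mean over the 5 arrays. PDLIM5 was closest to COL1A2, a fibrillar collagen gene (0.08), then to ZYX, the focal adhesion protein zyxin (0.10), and AUH (0.14). ZYX read 6627, 6501 and 5393 on failing 1a, 1b and 2a, against 2565 and 2204 on control 1a and 2a, and its other probe set was far below 0 on every array. ACTN2 was closest to PHPT1 (0.19), ZYX (0.26) and COL1A2 (0.27), with PDLIM5 in rank 5 at 0.32. ACTN2 and PDLIM5 thus shared ZYX and COL1A2 among their 3 nearest genes. The distance takes in the size of the failing against control difference, on which the members were chosen. That log2 difference was 1.37 for ZYX and 1.28 for COL1A2, beside 1.81 for ACTN2 and 1.21 for PDLIM5.

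TCAP was closest to KLHL41 (0.09), a muscle kelch protein, then to EIF3E (0.09) and PPP2CA (0.11). CSRP3 was closest to NFIB (0.10), ANXA11 (0.11) and PCBP2 (0.12), and XIRP1 to IQSEC3 (0.07), F2RL2 (0.11) and CYB561D1 (0.15). None of these 15 places was held by another of the 5 genes. From CSRP3, the ranks of the other members ran from 291 for TCAP to 910 for ACTN2, and from XIRP1 from 150 for TCAP to 827 for ACTN2. ACTN2, PDLIM5 and TCAP stood closer to one another in part. PDLIM5 had TCAP in rank 16 and ACTN2 in rank 38, and ACTN2 had TCAP in rank 30. From TCAP, PDLIM5 was in rank 47 and ACTN2 in rank 352. These distances rest on 5 arrays and describe likeness only.

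**Figure D4:**
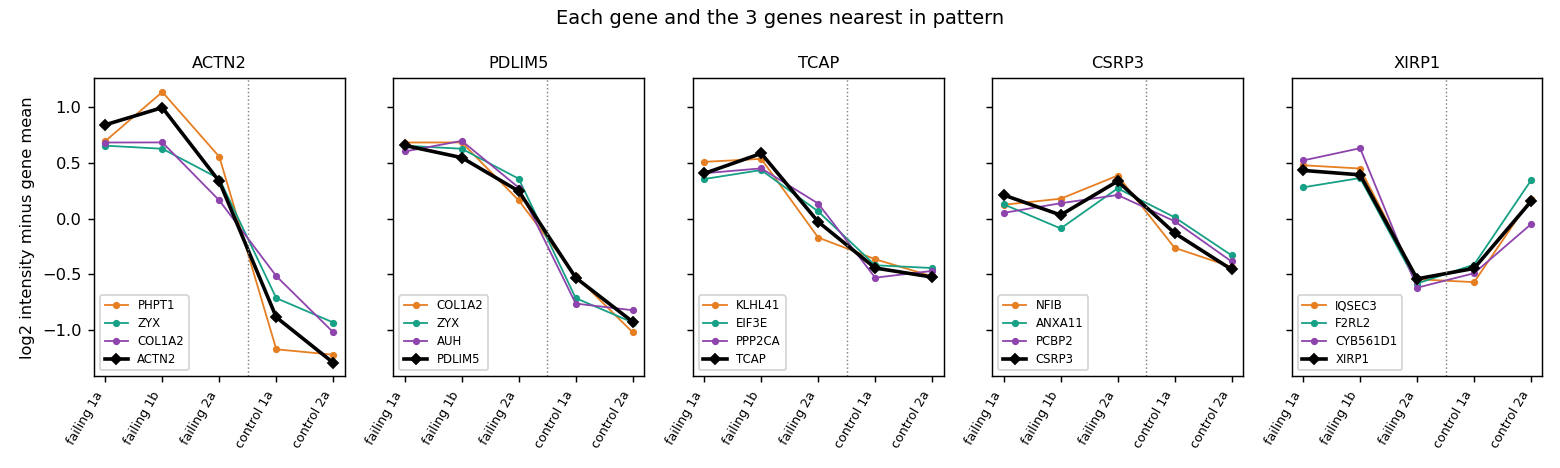
Log2 intensity minus the gene's own mean on each array for the 5 genes (black) and their 3 nearest genes (colours), failing arrays left of the dotted line and control arrays right of it. ACTN2 and PDLIM5 step down between the groups, and XIRP1 is high on failing 1a and 1b and low on failing 2a and control 1a.

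Under quantile normalization and when each array was scaled to its 75th percentile, the log2 difference was 1.72 and 1.61 for ACTN2, 1.16 and 1.01 for PDLIM5, 0.90 and 0.60 for TCAP, 0.35 and 0.28 for CSRP3 and 0.01 and 0.04 for XIRP1. The second scaling moves every gene with no floored array by the same amount, here -0.203. The order of the genes by size depended on the arrays and probe sets used. XIRP1 exceeded CSRP3 without failing 2a (0.56 and 0.42) and without control 2a (0.54 and 0.32), and TCAP came last with the median over its probe sets. The scalings moved the median of all genes to -0.0016 and -0.05, from 0.15 on the deposited scale. Under 75th percentile scaling the groups overlapped at HSPD15_s_at of TCAP and HSPD1533_at of CSRP3. At the brightest probe sets of ACTN2 and PDLIM5 they did not overlap under either scaling.

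**Figure D5:**
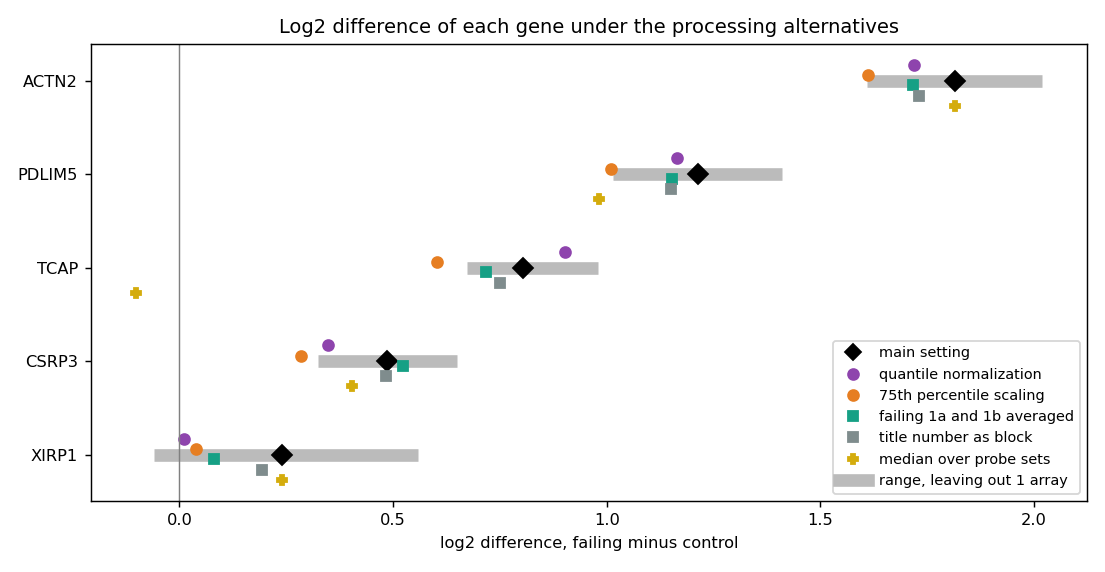
Log2 difference of each gene under the main setting (black diamond), other scalings, the averaging of failing 1a and 1b, the title number as a block and the median over probe sets, with the grey bar spanning the values when 1 array is left out. ACTN2 stays between 1.61 and 2.02, and TCAP crosses 0 with the median over its probe sets.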

How the data were processed

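The deposited table holds linear intensities by probe set, and the authors' scaling shows in the values alone, since each array has a mean of 800 after removing the lowest and highest 2% of probe sets. Protocol, scanner software and normalization are not given in the sources used here. Of 4653 probe sets, 52 array controls were left out, and of the rest 3724 carried a single gene symbol, 805 no symbol and 72 more than 1. Columns of other samples numbered 0. Values were floored at 20, put on the log2 scale and tested where the mean reached the median (7.13, or 140.1 in intensity) in R 4.3.3 with limma 3.58.1 (intensity trend, two-sided, Benjamini-Hochberg threshold 0.05), over 1449 genes at their brightest probe set and over 2301 probe sets. The fit was run on simulated data as a check of the code only. Spreads were shuffled between genes there, so it gives no estimate of power for the genes here. Errors of intensities are SDs over 3 failing or 2 control arrays, whose number limits the precision. Named genes are every member probe set, all relatives, up to 4 tested genes per list and direction by moderated statistic, of which a part is described, the 3 nearest genes in pattern and leading markers. Members and lists were chosen with earlier results of these data known.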

Additional observations from a re-analysis of the deposited data

How the results depend on the processing

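With 5 arrays, dim probe sets and human probes on dog RNA, small differences cannot be resolved. Of 60 recomputed values for the 5 genes, 58 moved by less than the spread between arrays. This count is no measure of stability, since many of the values could not move that far. Floors of 50 and 100 left all 5 genes unchanged, and ACTN2 and XIRP1 have 1 tested probe set for the median. The spread is the pooled SD of the same arrays, so omitting a failing array or averaging failing 1a and 1b always moves a value less. TCAP turned to -0.10 with the median over its probe sets, for which the cause was not tested. CSRP3 moved to 0.28 under 75th percentile scaling, which shifts all 5 genes by -0.203, more than the spread of CSRP3 (0.18) and less than that of the others. Leaving out 1 array gave log2 differences of 1.61 to 2.02 for ACTN2, 1.01 to 1.41 for PDLIM5, 0.67 to 0.98 for TCAP, 0.32 to 0.65 for CSRP3 and -0.06 to 0.56 for XIRP1. The member probe sets separated from control numbered 7, and 5 under 75th percentile scaling, or 7 to 10 with 1 array left out, the highest without failing 2a. These counts cover all 12 member probe sets, of which 10 were tested, while the shares that follow cover tested probe sets only. Of all tested probe sets 29.7% were separated, 28.9% under 75th percentile scaling and 40.1% to 50.5% with 1 array left out (49.2% without failing 2a), since fewer arrays overlap less often. The 1 gene called among all became 2 under 75th percentile scaling, 5 without the filter, 3 without the intensity trend, and 0 with failing 1a and 1b averaged or with the median over probe sets. With 1 array left out it ranged from 0 (without failing 1a or 1b) to 13 (without failing 2a). The 2 probe sets called became 4 at a floor of 100, 6 without the filter, 6 without the trend, and 0 with failing 1a and 1b averaged, and ranged from 0 to 21 with 1 array left out. No further Z-disc gene was called in any setting. Of genes at an unadjusted p under 0.05, 65.8% were higher on the deposited scale, 59% after quantile normalization and 45.5% under 75th percentile scaling. The titles share the numbers 1 and 2. With the title number as a replicate block, 1 gene and 0 probe sets were called, and ACTN2 had 1.73, PDLIM5 1.15, TCAP 0.75, CSRP3 0.48 and XIRP1 0.19. Across genes, control 1a minus 2a correlated at 0.0119 with the mean of failing 1a and 1b minus failing 2a. This single value involves failing 2a, which stood apart in general, and cannot decide whether same-numbered arrays share a batch.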
